A study of Homo sapiens with 15 samples.

Results

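H3K4me3 and H3K27ac were examined at 10 genes of the TGF-beta pathway and its ID targets in a triple-negative breast cancer cell line, MDA-MB-231, and in metastatic sub-populations derived from it. The ligands were TGFB1, TGFB2 and INHBA, the other genes were LTBP1, TGFBR2, SMAD3, SMAD7, SKIL, ID1 and ID3. An H3K4me3 region (a peak of the deposited count table) was taken when it lay within 2 kb of an annotated start of one of these genes, which gave 14 of 22572 regions. An H3K27ac region was taken when it lay within 100 kb of its nearest protein-coding start and that start belonged to one of these genes, which gave 131 of 62195 regions. In all, 145 of 84767 regions were members. By gene, the H3K27ac members were 1 region at TGFB1, 18 at TGFB2, 6 at INHBA, 27 at LTBP1, 23 at TGFBR2, 29 at SMAD3, 14 at SMAD7, 2 at SKIL, 5 at ID1 and 6 at ID3. All 14 H3K4me3 members held a start, and the next region outside the limit lay 3070 bp from the ID1 start with 1.84 to 6.50 counts per 1000000 counts in the regions of a mark (CPM). The H3K27ac member nearest to the limit lay 97978 bp from the TGFBR2 start with 5.01 to 9.69 CPM, and the next region beyond it lay 101526 bp away with 10.2 to 24.7.

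The libraries came from 3 cell lines: MDA-MB-231 itself (Par), LM2, a sub-population selected in vivo for growth in the lung, and BrM2, a sub-population selected in vivo for growth in the brain. All 3 were cultured lines of 1 origin, grown with 10% serum for 3 days and fixed with 1% formaldehyde for 10 min according to the labels, and the study's methods give a longer fixation. Each line had 2 replicates per mark, 12 libraries in all, which the labels call biological replicates. The comparisons ask where active promoter and enhancer marks differ between the metastatic sub-populations and Par, and between the sub-populations.

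TGF-beta and activin ligands are secreted, TGF-beta in a latent form that LTBP1 holds in the extracellular matrix. They bind type II receptors such as TGFBR2, and the activated receptor complex phosphorylates SMAD3, which enters the nucleus and regulates target genes. SMAD7 and SKIL restrain the signal, and ID1 and ID3, inhibitors of basic helix-loop-helix factors, are classical targets of the related BMP branch and are known for their part in breast cancer metastasis to the lung. H3K4me3 marks active promoters and H3K27ac marks active promoters and enhancers.

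The total counts in regions ranged from 3489607 to 9839629 for H3K4me3 and from 1994996 to 6450028 for H3K27ac, where BrM2 replicate 2 was the shallowest library. H3K4me3 was present at the mesenchymal marker genes VIM, CD44 and AXL (102.6 to 329 CPM) and, of 4 epithelial markers, low at CDH1, the epithelial cadherin (2.01 to 8.03), while KRT8 (81.2 to 188.7), KRT18 (59.2 to 101.0) and EPCAM (36.4 to 72.5) were marked in every library. The epithelial list summed to 248.5 and 337.1 in Par, 186.4 and 267.1 in LM2, with 273.1 and 348.1 in BrM2. Of 2 luminal markers, ESR1 had 6.88 and 7.15 CPM in Par, 39.5 and 38.3 in LM2, with 24.2 and 20.2 in BrM2. The other, GATA3, had 13.5 and 40.7 in Par, 8.03 and 18.1 in LM2, with 17.0 and 33.3 in BrM2. Of 5 genes of other cell types, PTPRC, PECAM1 and ALB had no H3K4me3 region within 2 kb, GFAP had 1 and SFTPC had 3, most of the signal being at SFTPC (58.7 to 100.3 CPM), with summed levels of 76.8 to 94.3 CPM in Par, 79.2 to 110 in LM2, with 61.3 to 91.3 in BrM2. The part of any such signal in the results was not tested. Levels below are in CPM.

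Few H3K4me3 members differed between the lines. In LM2 against Par 1 of 14 regions passed (DESeq2 adjusted p under 0.05), where 2.51% of all tested regions passed. In BrM2 against Par 0 of 14 passed, against 3.61% of all tested regions, and 1 had an unadjusted p under 0.05. In BrM2 against LM2 1 of 14 passed, against 3.18% of all. The regions that passed were short-transcript starts inside INHBA and SMAD3, both with low H3K4me3, and no main promoter passed. The median log2 fold change of the 14 members was -0.08 in LM2 and -0.15 in BrM2, beside 0.02 and -0.02 over all regions. edgeR called 0 members in each of the 3 comparisons, with 2, 1 and 1 at an unadjusted p under 0.05, where it called 1.61%, 3.07% and 2.81% of all regions.

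Libraries with the same replicate number deviated together, and when that number was added to the fit (the replicate block) DESeq2 called 3 of 14 members in LM2 (14.4% of all regions), 4 in BrM2 (17.7%) and 2 between the sub-populations (22% of all). edgeR with the block called 6, 8 and 7 members, where 26.2%, 33.3% and 38.6% of all regions passed. The blocked adjusted p is given below wherever it changed a call at a named region. In CPM, the libraries of the groups did not overlap at 4 of 14 members in LM2 against Par (31.1% of all regions) and at 4 of 14 in BrM2 against Par (35.5%). With the size factors of the test these were 6 of 14 (33.9%) and 6 of 14 (38.9%). Below, overlap is stated in CPM, and a different reading with size factors is named.

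**Figure D1:**
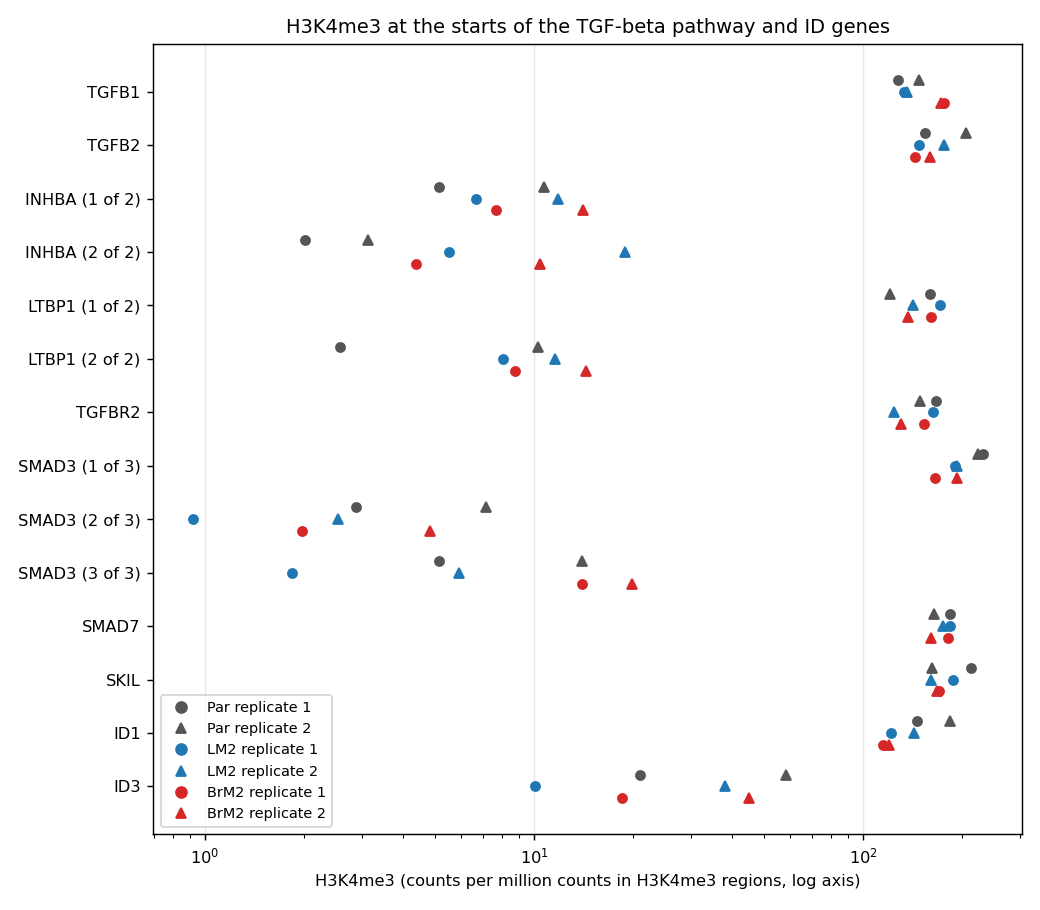
H3K4me3 at the 14 member regions (rows) in CPM on a log axis, with 1 point per library, colours for the lines and symbols for the replicates. The 8 main promoter regions other than those of ID3 and INHBA lie above 100 CPM in every library, and the second INHBA region and the third SMAD3 region, which passed the test, lie between 1.84 and 19.8.

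Both TGF-beta ligand genes had promoter H3K4me3 in every library. Per length, the level in Par lay at percentile 79.2 of promoter regions at TGFB1 and at percentile 50.1 at TGFB2. The TGFB1 promoter region (chr19:41856759-41860416, hg19), whose H3K4me3 start is shared with TMEM91, had 127.5 and 148 CPM in the Par replicates, 132.9 and 135.6 in LM2, with 176.4 and 172.4 in BrM2. Both BrM2 libraries lay above the Par libraries, but the difference did not pass (log2 fold change 0.29 ± 0.31 SE, DESeq2 adjusted p = 0.975). Against LM2 the difference was 0.28 ± 0.31 (adjusted p = 0.915, or 0.0469 with the replicate block). The TGFB2 promoter region (chr1:218517912-218525565) had 153.9 and 205.2 CPM in Par, 147.6 and 176.7 in LM2, with 143.4 and 159.7 in BrM2. The groups overlapped in CPM, whereas with size factors LM2 and BrM2 lay below Par, and the BrM2 difference was -0.30 ± 0.29 (adjusted p = 0.948, or 0.0311 with the replicate block). The median of the 16 other H3K4me3 regions within 2.5 Mb was -0.21 in BrM2, and with the medians of 5 Mb windows removed the TGFB2 difference was 0.01.

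INHBA encodes the beta A subunit of activin A. Its first promoter region had 5.16 and 10.7 CPM in Par, 6.66 and 11.8 in LM2, with 7.64 and 14.1 in BrM2, and these groups overlapped. The region that rose lay inside the gene (chr7:41738581-41740577) and held the start of a shorter transcript. It had 2.01 and 3.13 CPM in Par, 5.51 and 18.9 in LM2, with 4.36 and 10.4 in BrM2, from 7 and 21, 24 and 186, and 20 and 84 counts. Every LM2 and BrM2 library lay above both Par libraries, and the LM2 libraries differed widely from each other. INHBA H3K4me3 rose 4.66-fold in LM2 there (log2 fold change 2.22 ± 0.65, DESeq2 adjusted p = 0.0301). In BrM2 it was 1.44 ± 0.66 (adjusted p = 0.342, or 0.0351 with the replicate block). The LM2 call was lost in edgeR (2.21, adjusted p = 0.11) and with library totals as size factors (2.24, 0.094). It was also lost without Par replicate 1 (2.08), Par replicate 2 (2.42), LM2 replicate 2 (1.30), BrM2 replicate 1 (2.21) and BrM2 replicate 2 (2.22). Over 6 libraries, the promoter regions whose H3K4me3 pattern was most like it were those of SLCO4A1 (Pearson's r = 0.982), NELL2 (0.979) and IL7 (0.978) among 11804 promoter regions searched. The highest of so many correlations over 6 libraries can lie near 1 by selection alone, so they show no specific likeness. The likeness also shares the depth and the replicate numbers of these libraries.

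LTBP1 had H3K4me3 at 2 starts. At its first promoter (chr2:33171443-33173515) the level was among the highest per length, at the 98.7th percentile of promoter regions in Par, and its 160.2 and 121.2 CPM in Par overlapped with 170.8 and 142.3 in LM2, with 160.9 and 137.2 in BrM2. At its internal start the values were 2.58 and 10.3 CPM in Par, 8.03 and 11.6 in LM2, with 8.73 and 14.4 in BrM2, a difference of 0.78 ± 0.56 in BrM2 that did not pass (adjusted p = 0.787). The type II receptor gene TGFBR2 also showed no difference that passed. Its promoter region (chr3:30647465-30653329) had 166.2 and 148.8 CPM in Par, 163 and 124.3 in LM2, with 153.7 and 130.5 in BrM2.

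SMAD3, the receptor-activated transducer, had 3 H3K4me3 regions. At the main promoter (chr15:67356228-67362692) the CPM were 231.5 and 223.8 in Par, 191 and 192.5 in LM2, with 165.7 and 192.5 in BrM2. Both sub-populations lay below Par in every library, although with size factors LM2 overlapped Par, and the BrM2 difference was -0.42 ± 0.31 (adjusted p = 0.802, or 0.00182 with the replicate block). The third region, inside the gene (chr15:67417444-67419993), held a start of shorter transcripts and had 5.16 and 14 CPM in Par, 1.84 and 5.89 in LM2, with 14 and 19.8 in BrM2. The replicate 2 value was above the replicate 1 value in each line, both BrM2 libraries lay above both LM2 libraries, and Par overlapped with each, though not with size factors. SMAD3 H3K4me3 was 4.07-fold higher there in BrM2 than in LM2 (log2 fold change 2.03 ± 0.56, DESeq2 adjusted p = 0.0139). In LM2 against Par it was -1.25 ± 0.57 (adjusted p = 0.424, or 0.0346 with the replicate block), and in BrM2 against Par it was 0.77 ± 0.54 (adjusted p = 0.776). The call between the sub-populations was lost in edgeR (1.98, adjusted p = 0.068) and without LM2 replicate 1 (1.58), BrM2 replicate 1 (2.17) and BrM2 replicate 2 (1.94). The promoters most like it over the 6 libraries were those of FLNC (r = 0.997), FOXP1 (0.995) and CCNH (0.994) among 11803 searched, with the same limits as for INHBA.

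The sequences before both starts are shown because these were the H3K4me3 members that passed. They are the 250 bases before each start, read 5′ to 3′ along the gene from the GRCh37 (hg19) genome, for SMAD3 at chr15:67417804-67418053 on the plus strand and for INHBA at chr7:41740208-41740457 on the minus strand. Capitals mark matches on either strand to CAGAC, a SMAD3 and SMAD4 binding core, or to TGANTCA, the AP-1 motif. The SMAD3 window held 1 AP-1 match and the INHBA window 1 CAGAC match. Of 20176 promoter windows of this length, 37.5% held CAGAC and 5.44% held TGANTCA.
SMAD3 internal start: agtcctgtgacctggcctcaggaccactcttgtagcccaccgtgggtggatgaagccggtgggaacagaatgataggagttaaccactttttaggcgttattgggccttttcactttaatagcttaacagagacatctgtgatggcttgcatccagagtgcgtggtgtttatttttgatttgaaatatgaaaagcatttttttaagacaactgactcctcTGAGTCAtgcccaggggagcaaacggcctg
INHBA internal start: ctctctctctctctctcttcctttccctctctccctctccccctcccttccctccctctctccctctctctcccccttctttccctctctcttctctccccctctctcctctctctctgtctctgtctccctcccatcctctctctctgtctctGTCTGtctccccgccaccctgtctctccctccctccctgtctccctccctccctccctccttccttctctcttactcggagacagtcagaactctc

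At the 10 upstream-most starts of the member genes, CAGAC was present in the 250 bases before the start of 5 (TGFB2, LTBP1, SMAD7, SKIL and ID3), the GC-rich SMAD1 and SMAD5 motif GGCGCC in 1 (SKIL, against 17.9% of promoters), and neither TGANTCA nor the palindrome GTCTAGAC in any.

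The inhibitor genes had promoter H3K4me3 in every library. Per length, the level in Par lay at percentile 61.0 of promoter regions at SMAD7 and at percentile 97.6 at SKIL. SMAD7, the inhibitory SMAD (chr18:46473466-46479717), had 184 and 164.1 CPM in Par, 184.1 and 174.5 in LM2, with 181.4 and 161.3 in BrM2. SKIL, which encodes the SMAD corepressor SnoN (chr3:170073734-170076705), had 212.3 and 161.6 in Par, 188 and 160.6 in LM2, with 170.5 and 167.4 in BrM2. At SMAD7 and SKIL the groups overlapped in all comparisons, and the SMAD7 difference was 0.07 ± 0.34 in LM2 and -0.09 ± 0.34 in BrM2.

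At ID1 (chr20:30191806-30195344) H3K4me3 was 145.9 and 183.3 CPM in Par, 121.9 and 142.7 in LM2, with 115.2 and 119.7 in BrM2. The BrM2 libraries were below the LM2 libraries, and these below the Par libraries, with no overlap between the groups. The BrM2 difference was -0.54 ± 0.30 (DESeq2 adjusted p = 0.56), and with the replicate block -0.55 ± 0.12 (adjusted p = 4.36e-05). ID3 (chr1:23884106-23886709) had 20.9 and 58.5 CPM in Par, 10.1 and 38.1 in LM2, with 18.6 and 45 in BrM2. Its replicate 2 values were well above the replicate 1 values in every line, more so than the lines differed from each other. The LM2 difference was -0.71 ± 0.53 (adjusted p = 0.98, or 0.0161 with the replicate block).

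Each of the 14 H3K4me3 members overlapped 1 H3K27ac region. The H3K27ac log2 fold change was below 0 at 12 of these 14 in LM2 and at 11 of 14 in BrM2, beside 66.5% and 56.1% of 13145 H3K27ac regions that overlap an H3K4me3 region at a promoter. DESeq2 and edgeR called 0 of these 14 in each comparison, with 1 in LM2 and 2 in BrM2 at an unadjusted DESeq2 p under 0.05, and the replicate block called 2 in BrM2. At ID1 both marks were lower in both sub-populations: H3K27ac (chr20:30190036-30199623) was 100.3 and 131.3 CPM in Par, 98 and 84 in LM2, with 77 and 62.2 in BrM2. The groups did not overlap, and the BrM2 difference was -0.73 ± 0.28 (adjusted p = 0.123, or 0.0275 with the replicate block). SKIL promoter H3K27ac was 81 and 124.5 CPM in Par, 54 and 94.7 in LM2, with 50.5 and 80.7 in BrM2. Both BrM2 values were below the Par values, the higher of them only just and not with size factors, and the BrM2 difference was -0.65 ± 0.36 (adjusted p = 0.378, or 0.0346 with the replicate block). ID3 promoter H3K27ac was 22.1 and 37.1 CPM in Par, 10.1 and 23.1 in LM2, with 12.5 and 21.1 in BrM2, with a BrM2 difference of -0.84 (adjusted p = 0.381). The INHBA internal start went the other way, with 6.16 and 7.31 CPM of H3K27ac in Par, 11.3 and 13.8 in LM2, with 14 and 13 in BrM2. All LM2 and BrM2 libraries were above Par, and the differences were 0.83 ± 0.45 in LM2 (adjusted p = 0.446) and 1.02 ± 0.46 in BrM2 (adjusted p = 0.228).

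The H3K27ac region with the highest mean count of a gene lay at the promoter for TGFB1, TGFB2, TGFBR2, SMAD7, SKIL and ID1, and elsewhere for the others. At the TGFB2 promoter H3K27ac was 130.5 and 122.9 CPM in Par, 96.4 and 126.3 in LM2, with 84.1 and 95.7 in BrM2, which lay below Par (-0.50 ± 0.27, DESeq2 adjusted p = 0.378). At the SMAD7 promoter it was 48.8 and 57.9 in Par, 32.2 and 49.2 in LM2, with 29.3 and 40.6 in BrM2, also below Par (-0.62 ± 0.34, adjusted p = 0.373). The TGFBR2 promoter had 99.2 and 91.6 in Par, 97.7 and 86.7 in LM2, with 105.5 and 82.7 in BrM2, and these groups overlapped. The strongest SMAD3 region (chr15:67389245-67403813) held an internal start and had 121.6 and 130.2 CPM in Par, 76.6 and 139.1 in LM2, with 100.4 and 120.3 in BrM2 (-0.19 ± 0.32, adjusted p = 0.878). The LTBP1 one was intronic (chr2:33382199-33386509), with 36.3 and 33.7 in Par, 40.6 and 27.9 in LM2, then 47.9 and 35.6 in BrM2, and the ID3 one lay 3775 bp from a start, with 22.8 and 35, 15.7 and 28.7, then 22.2 and 36.6. Both overlapped between the lines, and none of these regions passed in LM2 or BrM2 against Par, with or without the replicate block, other than ID1 and SKIL with the block in BrM2.

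**Figure D2:**
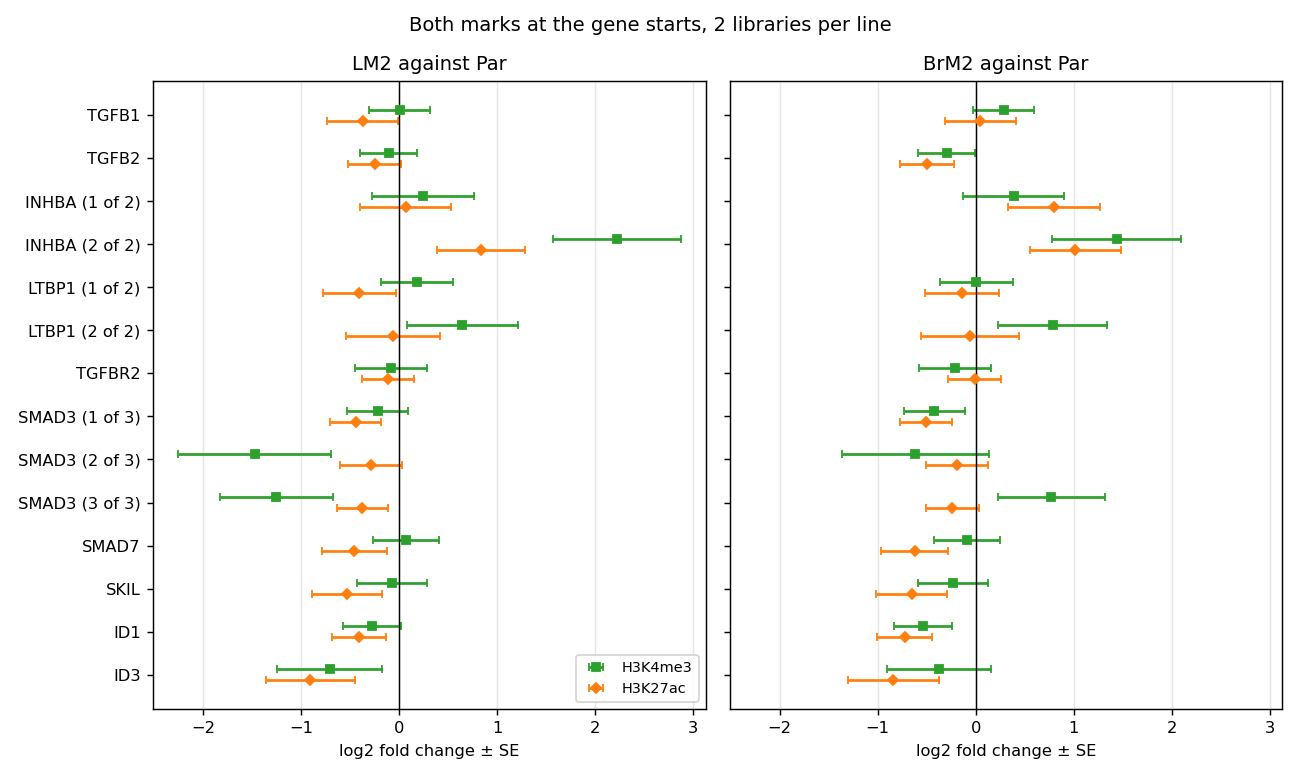
Log2 fold changes with their standard errors (bars) of H3K4me3 (squares) and of the overlapping H3K27ac region (diamonds) at the 14 member starts (rows), LM2 against Par on the left and BrM2 against Par on the right. Most H3K27ac points lie left of 0, ID1 has both marks left of 0 in both panels, and the second INHBA start has both marks right of 0.

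Of the 131 H3K27ac members, 60 lay in introns, 27 overlapped an exon and 44 lay outside the gene, and 16 held a start. After the filter of the test on low counts, 99 had an adjusted p in LM2 against Par, 109 in BrM2 against Par and 93 in BrM2 against LM2. In BrM2 against Par 4 members passed, all higher in BrM2, at INHBA, LTBP1, TGFBR2 and SMAD7 (5.29% of all tested regions passed, 3.62% upward). In BrM2 against LM2 3 passed, with LTBP1 and TGFBR2 higher and TGFB2 lower in BrM2 (2.94% of all). In LM2 against Par 0 passed by DESeq2 (3.63% of all), 7 had an unadjusted p under 0.05 and edgeR called 1, at SMAD7. edgeR called 5.14% of all regions in LM2, and 4 and 3 members in BrM2 against Par and against LM2 (6.88% and 3.89% of all). The replicate block called 1 member in LM2 (5.44% of all), 8 in BrM2 (8.13%) and 3 between the sub-populations (6.17%), and edgeR with the block called 11, 15 and 7 (13.2%, 15.9% and 12.5%). Of the members with an adjusted p, 3.67% passed in BrM2 against Par and 3.23% in BrM2 against LM2. In CPM, the groups did not overlap at 54 members in LM2 against Par (41.2%, against 43% of all regions), at 63 in BrM2 against Par (48.1%, against 50.4%) and at 44 in BrM2 against LM2 (33.6%, against 47.2%). With size factors these were 62 (47.3%, against 43.3%), 60 (45.8%, against 50.4%) and 39 (29.8%, against 47.1%). The median log2 fold change of the 131 members was -0.13 in LM2 and -0.08 in BrM2, beside -0.02 over all regions in both.

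**Figure D3:**
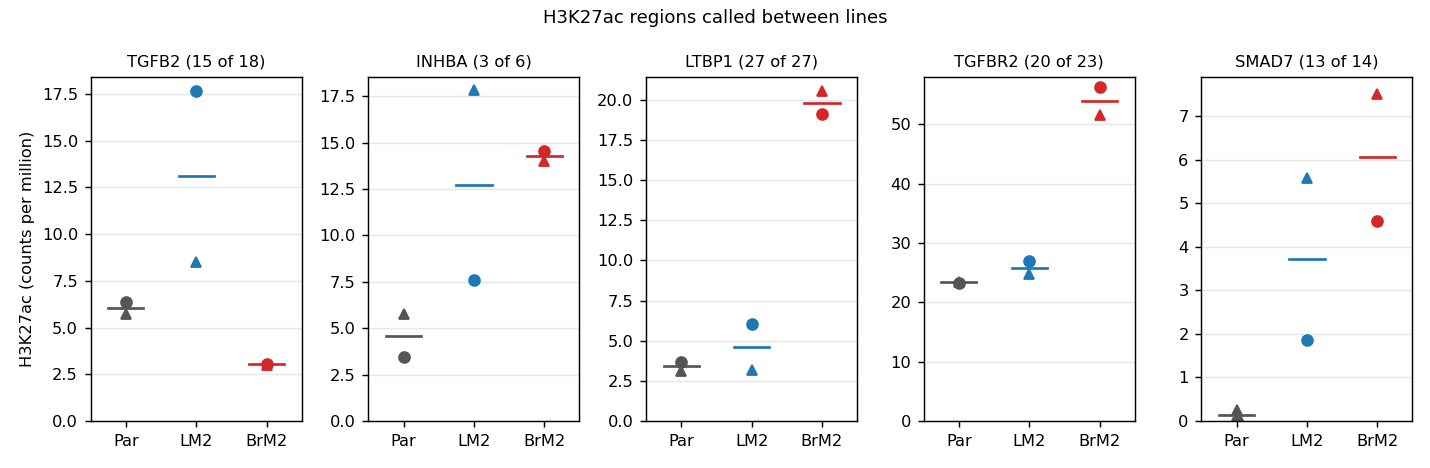
H3K27ac in CPM (vertical axes from 0) at the 5 member regions that passed in at least 1 comparison, with 1 point per library (circles for replicate 1, triangles for replicate 2) and a line at the mean of the 2 replicates. LTBP1 and TGFBR2 are highest in BrM2, SMAD7 and INHBA are above Par in LM2 as well, and TGFB2 is lowest in BrM2.

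The LTBP1 region lay in an intron (chr2:33579586-33581597), 52989 bp from the nearest start. It had 3.65 and 3.13 CPM in Par, 6.05 and 3.19 in LM2, with 19.1 and 20.6 in BrM2. Both BrM2 libraries were above all others, and LM2 overlapped Par. LTBP1 H3K27ac rose 5.84-fold in BrM2 (log2 fold change 2.54 ± 0.52, DESeq2 adjusted p = 0.000142) and was 4.38-fold above LM2 (2.13 ± 0.50, adjusted p = 0.00201). The BrM2 call against Par was lost without BrM2 replicate 1 (2.61, adjusted p = 0.0505), and that against LM2 without LM2 replicate 2 (1.79), BrM2 replicate 1 (2.21) and BrM2 replicate 2 (2.10). The median of the 47 other H3K27ac regions within 2.5 Mb was 0.27 in BrM2, and with 5 Mb window medians removed the difference was 2.32. DESeq2 and edgeR called no other LTBP1 region, and none had an unadjusted DESeq2 p under 0.05.

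The TGFBR2 region overlapped an exon near the end of the gene (chr3:30719429-30725349), 71336 bp from the nearest start. It had 23.3 and 23.5 CPM in Par, 27 and 24.7 in LM2, with 56.3 and 51.6 in BrM2, where the BrM2 libraries stood apart and the replicates of each line lay close together. TGFBR2 H3K27ac rose 2.32-fold in BrM2 (1.21 ± 0.31, DESeq2 adjusted p = 0.00453) and was 2.19-fold above LM2 (1.13 ± 0.31, adjusted p = 0.0142). The call against Par was lost without either Par replicate (1.20 and 1.22) or either BrM2 replicate (1.16 and 1.27), and that against LM2 without either LM2 replicate (1.17 and 1.08) or either BrM2 replicate (1.07 and 1.19). A region upstream of the gene, named because it passed with the replicate block (chr3:30551205-30556433) had 45.2 and 46.2 CPM in Par, 70.4 and 50 in LM2, with 81.6 and 72.2 in BrM2. The 3 groups did not overlap, and the BrM2 difference was 0.76 ± 0.29 (adjusted p = 0.122, or 0.0275 with the replicate block). The TGFBR2 promoter itself had a difference of -0.01 ± 0.27 in BrM2.

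The SMAD7 region lay in an intron (chr18:46449146-46450078), 24797 bp from the start, and was almost unmarked in Par. It had 0 and 1 counts in Par, 12 and 21 in LM2, with 18 and 15 in BrM2, or 0 and 0.261 CPM, 1.86 and 5.58, and 4.59 and 7.52. SMAD7 H3K27ac rose there in BrM2 (log2 fold change 5.61 ± 1.6, DESeq2 adjusted p = 0.0141), and in LM2 the change was 4.83 ± 1.6 (adjusted p = 0.0611, or 0.0338 with the replicate block). With 1 count in Par, the ratio of counts scaled to the library totals was 45.9 in BrM2 with a 95% counting interval of 7.68 to 1866, and 25.3 in LM2 with 4.24 to 1030. The BrM2 call was lost without Par replicate 1 (4.51), Par replicate 2 (7.16), BrM2 replicate 1 (5.95) and BrM2 replicate 2 (5.23). The median of the 55 other regions within 2.5 Mb was 0.25 in BrM2, and with 5 Mb window medians removed the difference was 5.32 (adjusted p = 0.0299).

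At INHBA the intronic region (chr7:41735138-41736502), 3705 bp from the nearest start, had 3.42 and 5.74 CPM in Par, 7.60 and 17.8 in LM2, with 14.5 and 14 in BrM2. Every library of both sub-populations was above Par. INHBA H3K27ac rose 3.14-fold in BrM2 (1.65 ± 0.55, DESeq2 adjusted p = 0.0475), and the LM2 difference was 1.40 ± 0.54 (adjusted p = 0.145). The BrM2 call was lost when any 1 of the 6 libraries was left out (1.32 to 2.07) and with 5 Mb window medians removed (1.41, adjusted p = 0.142). At TGFB2 an intronic region (chr1:218598547-218600565) had 6.39 and 5.74 CPM in Par, 17.7 and 8.51 in LM2, with 3.06 and 3.01 in BrM2. LM2 was above and BrM2 below Par in every library. TGFB2 H3K27ac was 4.15-fold lower in BrM2 than in LM2 (-2.05 ± 0.61, DESeq2 adjusted p = 0.0321). This call too was lost when any 1 of the 6 libraries was left out (-2.46 to -1.45) and with 5 Mb window medians removed (-1.70, adjusted p = 0.161).

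The central 300 bases of the TGFBR2 and INHBA regions are shown as examples of regions whose H3K27ac rose in BrM2, read 5′ to 3′ on the plus strand of GRCh37 at chr3:30722240-30722539 and chr7:41735671-41735970, both in introns. Capitals again mark CAGAC and TGANTCA on either strand. The TGFBR2 window held 1 CAGAC match and the INHBA window 1 match of each motif, while the SMAD7 window (chr18:46449463-46449762), not shown, held neither, where 14.1% and 42.3% of 62195 windows at H3K27ac region centres held TGANTCA and CAGAC.
TGFBR2 intron: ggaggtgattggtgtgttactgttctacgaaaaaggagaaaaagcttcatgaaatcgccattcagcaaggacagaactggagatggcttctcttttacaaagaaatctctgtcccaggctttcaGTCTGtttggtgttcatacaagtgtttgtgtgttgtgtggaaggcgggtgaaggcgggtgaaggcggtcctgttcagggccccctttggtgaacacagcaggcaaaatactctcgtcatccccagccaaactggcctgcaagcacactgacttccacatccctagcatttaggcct
INHBA intron: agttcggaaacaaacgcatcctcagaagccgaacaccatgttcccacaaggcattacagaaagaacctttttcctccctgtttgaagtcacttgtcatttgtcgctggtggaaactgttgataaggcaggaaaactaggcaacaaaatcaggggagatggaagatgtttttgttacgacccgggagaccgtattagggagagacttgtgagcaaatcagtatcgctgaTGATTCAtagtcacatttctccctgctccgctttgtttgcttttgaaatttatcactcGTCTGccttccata

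SMAD3 had the most H3K27ac, summed over its 29 regions, at 703.7 and 756.6 CPM in Par, 569.5 and 633.5 in LM2, with 611.5 and 629.1 in BrM2. Both sub-populations were below Par in every library. The SMAD3 regions covered the most sequence, 115809 bp. Per kb SMAD3 had a mean of 5.62 CPM, below SKIL (25.6), ID1 (9.24), TGFB1 (8.16), ID3 (6.84) and TGFBR2 (6.17). The SMAD3 log2 fold change was below 0 at 24 of 29 regions in LM2 and at 25 of 29 in BrM2, beside 51.5% and 50.9% of all regions, and neighbouring regions of 1 locus are not independent. DESeq2 and edgeR called 0 of the 29 in both comparisons with Par, with 2 and 3 at an unadjusted DESeq2 p under 0.05. With the replicate block 1 region passed in BrM2 (chr15:67424826-67433321), with 27.6 and 30.3 CPM in Par, 25.4 and 27.4 in LM2, with 13.5 and 16.5 in BrM2 (-0.96 ± 0.36, adjusted p = 0.105, or 0.048 with the block). The upstream region chr15:67332485-67343610 went the other way in BrM2, with 62.5 and 63.9 CPM in Par, 61.9 and 63 in LM2, with 84.1 and 86.7 in BrM2 (0.44, adjusted p = 0.459), and was singled out after its values were seen. At the SMAD3 promoter H3K27ac was 102.9 and 107.3 CPM in Par, 76.7 and 84.8 in LM2, with 70.9 and 76.7 in BrM2, with no overlap between Par and either sub-population and a BrM2 difference of -0.51 (adjusted p = 0.329).

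**Figure D4:**
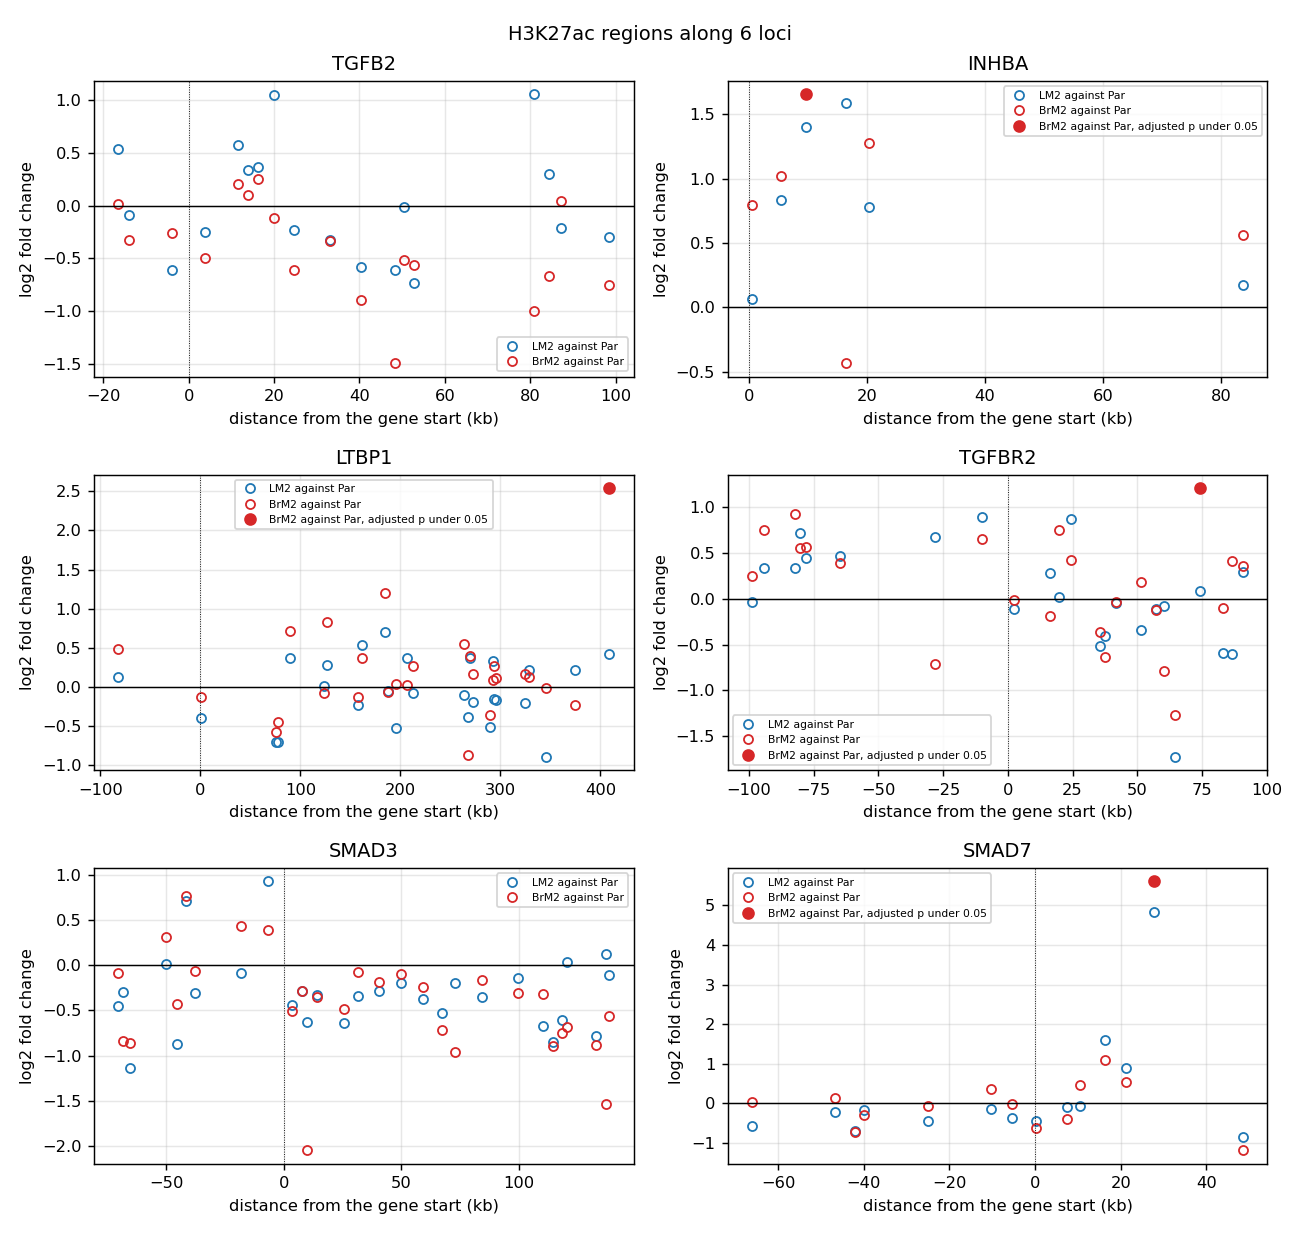
Log2 fold changes of each H3K27ac member region in LM2 (blue) and BrM2 (red) against Par, by the distance of the region's centre from the gene start in kb along the gene, at 6 loci. Filled points passed the test, and the SMAD3 points downstream of the start lie below 0 in both sub-populations with 2 exceptions in LM2.

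The summed H3K27ac of the other genes differed in direction. INHBA had 28.7 and 26.4 CPM over its 6 regions in Par, 40.3 and 52.4 in LM2, with 56.6 and 54.6 in BrM2, with no overlap between Par and the sub-populations. TGFB2 had 260 and 248.2 over its 18 regions in Par, 240.6 and 238.8 in LM2, with 196 and 184 in BrM2. BrM2 was below Par at TGFB2, where the median of the 96 other regions within 2.5 Mb of its promoter was -0.36. ID1 had 139.1 and 196.8 over its 5 regions in Par, 155.5 and 129 in LM2, with 112.8 to 117 in BrM2. At LTBP1 the sums were 225.1 and 194.5 in Par, 228.4 and 197.3 in LM2, with 272 and 220.6 in BrM2, and at TGFBR2 351.5 and 305.6, 381.7 and 333.2, and 442.2 and 372.4. LTBP1 overlapped between Par and BrM2, and TGFBR2 did not. At SKIL the BrM2 sums of 51.5 and 82.7 lay just below the Par sums of 83.9 and 127.1. The sums of SMAD7 and ID3 overlapped between Par and BrM2, and TGFB1 had 1 region, at its promoter, with 31.5 and 30.8 CPM in Par, 19.7 and 30.9 in LM2, with 38.5 and 25.1 in BrM2. With 2 libraries a line an exact permutation test of such a sum could not reach a p under 0.05, and none was made.

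**Figure D5:**
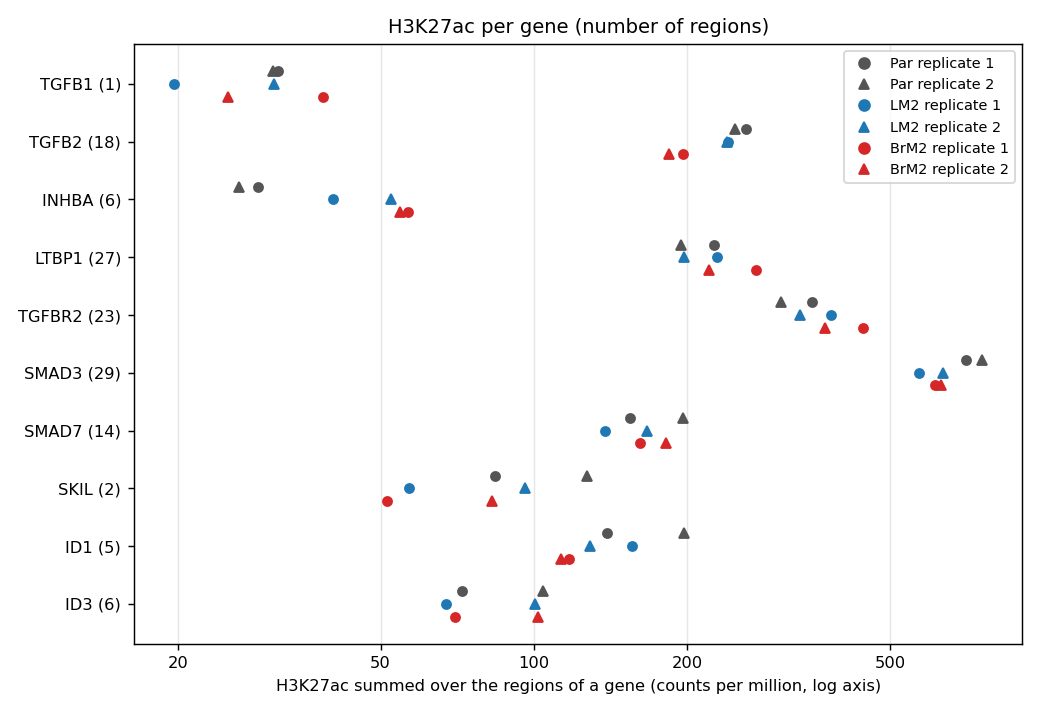
H3K27ac summed over the member regions of each gene (rows, with the number of regions) in CPM on a log axis, with 1 point per library. SMAD3 has the highest sums, and both sub-populations lie below Par at SMAD3 and above Par at INHBA.

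A list of 43 other genes of the pathway was examined in the same way. In H3K4me3, 41 of the 43 genes had 57 regions, of which DESeq2 called 3 higher and 0 lower in LM2 (2.51% of all tested regions passed), and 2 higher and 0 lower in BrM2 (3.61%). With the replicate block these were 12 higher and 5 lower in LM2 (14.4% of all) and 8 higher and 8 lower in BrM2 (17.7%). In H3K27ac, all 43 had 256 regions, of which 203 had an adjusted p in LM2 and 214 in BrM2. Of these, 3 rose and 2 fell in LM2 (3.63% of all passed), and 10 rose and 4 fell in BrM2 (5.29%). With the block 5 were higher and 4 lower in LM2 (5.44% of all), and 16 higher and 6 lower in BrM2 (8.13%). These shares of the list have no test. ENG, the co-receptor endoglin, had 0 and 0.894 CPM of H3K4me3 at a promoter region in Par, 11.7 and 18.3 in LM2, with 21.8 and 24.4 in BrM2. ENG rose in LM2 (log2 fold change 4.81 ± 0.75, DESeq2 adjusted p = 1.01e-07) and in BrM2 (5.36 ± 0.75, adjusted p = 4.13e-10). With 1 library left out the ENG change ranged from 4.23 to 8.01 in LM2 and from 4.76 to 8.56 in BrM2. INHBB, which encodes another activin beta subunit, had 57.9 and 66.3 CPM in Par, 95.7 and 115.3 in LM2, with 221.8 and 186 in BrM2, and rose in BrM2 (1.67 ± 0.32, adjusted p = 3.25e-05). Its promoter H3K27ac also rose in BrM2 (2.14 ± 0.36, adjusted p = 1.28e-06). TGFBI, a matrix gene induced by TGF-beta, had 17.8 and 16.5 CPM in Par, 44.1 and 35.8 in LM2, with 8.29 and 5.33 in BrM2, and was lower in BrM2 than in LM2 (-2.67 ± 0.45, adjusted p = 6.85e-07). LTBP3, a latency protein gene, had 7.45 and 10.3 CPM at the start of a non-coding transcript inside the gene in Par, 3.21 and 3.15 in LM2, with 18.8 and 14.6 in BrM2, and was higher in BrM2 than in LM2 (2.33 ± 0.51, adjusted p = 0.000517), a call lost without LM2 replicate 2 or BrM2 replicate 1 (2.0 to 2.64 with 1 library left out). Another LTBP3 region, at a protein-coding start (chr11:65324592-65326836), went the other way. It had 33.74 and 40.25 CPM in LM2, with 17.46 and 29.37 in BrM2 (-0.77 ± 0.37, DESeq2 adjusted p = 0.388, or 0.00994 with the replicate block). In BrM2 against LM2, TGFBI and the internal LTBP3 region were the 2 H3K4me3 regions called of 57, 1 lower and 1 higher (3.18% of all passed). With the block 5 were higher and 14 lower (22%). In H3K27ac 5 of 193 were higher and 0 lower (2.94%), or 9 and 3 with the block (6.17%). The H3K4me3 calls given above at ENG, INHBB and TGFBI were kept with any 1 library left out, which does not hold for every H3K27ac call at ENG and INHBB.

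In the BMP branch, BMP2, a ligand, had 64.5 and 49.1 CPM of H3K4me3 in Par, 162.7 and 133.7 in LM2, with 105.2 and 108.9 in BrM2, and rose in LM2 (1.42 ± 0.37, DESeq2 adjusted p = 0.00778). The BMP2 call was lost in edgeR (adjusted p = 0.0696) and with 5 Mb window medians removed (DESeq2 adjusted p = 0.127). It was also lost without Par replicate 2 or LM2 replicate 1 (1.06 to 1.80 with 1 library left out). ID4, another member of the ID family, had 91.7 and 91.5 CPM in Par, 216.9 and 184.5 in LM2, with 190.8 and 172.7 in BrM2. ID4 H3K4me3 rose in LM2 (1.18 ± 0.34, adjusted p = 0.0263), and in BrM2 it differed by 0.93 ± 0.34 (adjusted p = 0.127, or 2.2e-13 with the replicate block). The ID4 call was lost in edgeR (adjusted p = 0.166) and without Par replicate 1, Par replicate 2, LM2 replicate 1 or LM2 replicate 2 (0.85 to 1.43). The replicate block made further differences pass at these H3K4me3 regions. INHBB differed by 0.79 in LM2 against Par (DESeq2 adjusted p = 0.277, or 1.01e-06 with the block) and by 0.88 in BrM2 against LM2 (0.13, or 6.73e-09). TGFBI differed by 1.27 in LM2 (0.109, or 5.96e-05) and by -1.40 in BrM2 against Par (0.0593, or 2.97e-05). BMP2 differed by 0.83 in BrM2 against Par (0.296, or 1.24e-07) and by -0.59 against LM2 (0.634, or 0.000901), and LTBP3 by -1.46 in LM2 against Par (0.153, or 0.00878). ID4 lay above Par in every library of both sub-populations, and ID1 below Par in every library of both. BMP4, another BMP ligand, also lay below, with 385.7 and 420.7 CPM of H3K4me3 in Par, 247.4 and 295.9 in LM2, with 248.4 and 271.9 in BrM2. The BMP4 H3K4me3 difference was -0.55 ± 0.29 in LM2 (DESeq2 adjusted p = 0.63, or 6.0e-09 with the block) and -0.70 ± 0.29 in BrM2 (0.23, or 1.1e-14). With 5 Mb window medians removed the BrM2 adjusted p was 0.342 (DESeq2 without the block). BMP4 H3K27ac passed in both directions in BrM2 against Par. It rose at chr14:54389414-54394498 (1.29 ± 0.34, DESeq2 adjusted p = 0.0072) and fell at chr14:54443435-54448977 (-1.585 ± 0.33, 0.00019). The rise lost its call without either Par or either BrM2 replicate, and the fall without BrM2 replicate 1.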

How the data were processed

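ChIP-seq of H3K4me3 and H3K27ac was analysed in 12 libraries, 2 replicates of 3 lines per mark. The 3 input samples were not used. Groups and replicate numbers came from the sample titles, and 0 count columns were left unmatched.

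Per the labels and methods, the authors used Bowtie2 for alignment to hg19 and Picard for duplicates, called broad consensus regions with MACS2 on the merged libraries of a mark and counted reads, extended by 150 bp, with featureCounts v1.6.0. The deposited tables hold raw counts per region. Since regions were called on pooled reads, a region marked in 1 line can be underrepresented, and input was not subtracted from the counts. Tool versions in the submitters' processing notes include Bowtie2 2.3.4.3 and MACS2 2.1.2.

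Regions were placed with GENCODE release 44 mapped to GRCh37. Members were the regions within 2 kb (H3K4me3) of any start of the 10 genes, or within 100 kb (H3K27ac) of their nearest protein-coding start. Regions are numbered along the gene. CPM are counts per 1000000 counts in the regions of a mark. Differences were tested across all regions of a mark with the DESeq2 1.42.0 Wald test (R 4.3.3). Cell line was the only term, with median-of-ratios size factors and Benjamini-Hochberg adjustment at 0.05. This design leaves 3 residual degrees of freedom, or 2 with the replicate block. Log2 fold changes are given ± SE. The scripts were tested on simulated data. With 2 replicates per line, a p-value weighs a difference against the spread between these libraries. That spread is estimated from all lines together and moderated across regions.

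Alternatives were edgeR 4.0.16 (quasi-likelihood), a replicate block, TMM or library-total size factors, loess offsets, chromosome or 5 Mb window medians removed, a minimum of 10 counts in every library, 1 start per gene, and each library left out. The numbers were taken to pair the libraries, since deviations from the line means correlated between lines over regions (r = 0.664 to 0.706 for H3K4me3 over 17558 regions, 0.279 to 0.365 for H3K27ac over 45448); the labels do not say what a number stands for.

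Named regions were, for each gene and mark, the one with the highest mean count and each that passed in a comparison. Regions that passed only with the replicate block were added after their values were seen. For called H3K4me3 regions the 3 most alike were ranked by Pearson's r among promoter regions with a mean count of at least 50. Other pathway genes were named where a promoter region passed, and BMP4 was added after its values were seen. The members and lists were chosen with earlier results of these data known. Intervals of count ratios are exact at 95% and cover counting error only. The sequences of 3 called H3K27ac regions are not reported here.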

Additional observations from a re-analysis of the deposited data

Results flagged for a closer look

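At 4 member regions the effect against Par differed between the sub-populations, by the direct test of BrM2 against LM2 (DESeq2). The SMAD3 internal start differed in H3K4me3 by 2.03 (LM2 -1.25 and BrM2 0.77 against Par). In H3K27ac the LTBP1 intron differed by 2.13 (LM2 0.41, BrM2 2.54), the TGFBR2 region by 1.13 (LM2 0.08, BrM2 1.21) and the TGFB2 intron by -2.05 (LM2 1.06, BrM2 -0.997). Both effects of a region are measured against the same Par libraries.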

How the results depend on the processing

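Counts of called members changed with the fit. In H3K4me3, LM2 against Par had 1 called member, but 0 with edgeR or library totals, 3 with the replicate block and 6 with edgeR and the replicate block. With the minimum of 10 counts 0 were called, as that INHBA region was not tested. With 1 start per gene 0 were called, as it was no longer a member. BrM2 against Par had 0, but 4 with the replicate block and 8 with edgeR and the block. BrM2 against LM2 had 1, but 0 with edgeR, 2 with the replicate block and 7 with edgeR and the block. With the minimum of 10 counts 0 were called, as that SMAD3 region was not tested. With 1 start per gene 0 were called, as it was no longer a member. In H3K27ac, LM2 against Par had 0, but 1 with edgeR, the replicate block, chromosome medians or window medians removed, and 11 with edgeR and the replicate block. BrM2 against Par had 4, with 3 once window medians were removed (INHBA lost) or the minimum of 10 counts was set (SMAD7 not tested), but 8 with the replicate block and 15 with edgeR and the block. BrM2 against LM2 had 3, with 2 once window medians were removed (TGFB2 lost) or the minimum was set (TGFB2 not tested), and 7 with edgeR and the replicate block. With 1 library left out, the counts were 0 to 1, 0 to 0 and 0 to 1 in H3K4me3, and 0 to 0, 0 to 3 and 0 to 2 in H3K27ac. Each lone library was then assumed to vary like the other lines. The replicate block changed no other call at the named regions than those printed beside their results. No called value reversed. The 9 called values lost their call in 5 of 77 repeats under other settings and in 36 of 54 with a library left out, and values not called gained a call in 41 of 640 repeats under other settings and in 0 of 432 with a library left out. The cause was not tested. Depth limits the regions with few counts, above all those at SMAD7 and the internal starts of SMAD3 and INHBA.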
